A study of Mus musculus with 40 samples.

Results

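The hypoxia-inducible factors (HIF) switch on many genes when oxygen is low, and the 10 described here are targets grouped apart from the lists for glycolysis and for vessels: Bnip3, Bnip3l, Ankrd37, Car9, Ddit4, P4ha1, P4ha2, Kdm3a, Ndrg1 and Angptl4. They were taken by symbol from a table of 42037 gene symbols, and all 10 passed the filter on low counts that left 23495 genes for testing. They were measured by RNA-seq in 40 single whole retinas of C57BL/6J mice, with 4 retinas in each of 10 groups, at postnatal day 17 (P17) or 19 (P19). At each age, 4 groups had oxygen-induced retinopathy (OIR), a model made by keeping pups at 75% oxygen between P7 and P12 and then in room air, so that vessels are lost and abnormal ones grow in their place. Each OIR eye was given 1 µl into the vitreous at P14. The OIR_Vab group received the anti-VEGFA antibody B20.4.1. and the OIR_A2ab group the anti-ANG-2 antibody LC10, both at 0.2 µg/µl. The OIR_VA2ab group received a bispecific antibody to VEGFA and ANG-2, and the OIR_IgG group control IgG, both at 0.4 µg/µl. The fifth group at each age, nOIR, came from control mice, and the labels do not say whether these were injected, so a difference from nOIR holds any effect of the injection.

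HIF is a pair of proteins, an alpha subunit that prolyl hydroxylases mark for destruction while oxygen is present and a stable beta subunit. When oxygen falls, the alpha subunit persists and the pair binds DNA at short sites with the core ACGTG or GCGTG. The targets described here act in removal of mitochondria (Bnip3 and Bnip3l), acid and lipid handling at the cell surface (Car9, Angptl4), restraint of growth (Ddit4, Ndrg1), collagen and histone modification by enzymes that themselves use oxygen (P4ha1, P4ha2, Kdm3a), and in a small ankyrin repeat protein whose function is less known (Ankrd37). In the OIR retina, the central area that lost its capillaries is short of oxygen after the return to room air.

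Promoter windows of 300 bases, from 250 before to 50 after the annotated start, were available for 7 of the 10 genes in the table of RefSeq promoters used. The windows of 4 are shown: Bnip3 and Ankrd37 as genes called in at least 1 comparison, Car9 as the gene with the largest fold, and P4ha1 as a gene that edgeR called in none. Capitals mark every match to ACGTG or GCGTG on either strand, so that CACGT and CACGC are matches read from the opposite strand.
Bnip3, GRCm38.p6 chr7:138909457-138909756, minus strand: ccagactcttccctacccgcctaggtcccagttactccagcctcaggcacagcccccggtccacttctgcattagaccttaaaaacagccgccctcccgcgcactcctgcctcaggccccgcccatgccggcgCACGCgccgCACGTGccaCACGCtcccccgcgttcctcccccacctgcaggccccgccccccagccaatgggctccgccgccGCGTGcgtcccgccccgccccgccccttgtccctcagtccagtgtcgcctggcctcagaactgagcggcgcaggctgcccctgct
Ankrd37, GRCm38.p6 chr8:45999801-46000100, minus strand: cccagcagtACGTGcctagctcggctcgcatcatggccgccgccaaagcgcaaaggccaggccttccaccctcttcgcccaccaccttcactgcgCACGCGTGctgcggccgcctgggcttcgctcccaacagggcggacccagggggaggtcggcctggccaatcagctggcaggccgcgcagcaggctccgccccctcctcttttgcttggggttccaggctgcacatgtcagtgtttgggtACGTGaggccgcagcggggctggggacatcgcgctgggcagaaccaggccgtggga
Car9, GRCm38.p6 chr4:43506776-43507075, plus strand: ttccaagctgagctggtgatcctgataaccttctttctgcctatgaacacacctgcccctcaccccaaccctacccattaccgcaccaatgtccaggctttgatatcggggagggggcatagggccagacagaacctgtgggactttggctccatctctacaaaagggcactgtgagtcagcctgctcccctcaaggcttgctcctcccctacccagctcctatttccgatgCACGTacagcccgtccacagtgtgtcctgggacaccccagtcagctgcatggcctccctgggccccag
P4ha1, GRCm38.p6 chr10:59323046-59323345, plus strand: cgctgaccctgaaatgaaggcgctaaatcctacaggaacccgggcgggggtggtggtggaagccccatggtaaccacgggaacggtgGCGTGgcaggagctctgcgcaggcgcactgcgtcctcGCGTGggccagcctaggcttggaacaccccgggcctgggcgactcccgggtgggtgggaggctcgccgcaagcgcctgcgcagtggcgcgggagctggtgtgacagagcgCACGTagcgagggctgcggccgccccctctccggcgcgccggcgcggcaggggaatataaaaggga
Bnip3 had 5 matches, of which 2 overlap in CACGTG, a sequence that reads the same on both strands, 108 bases before the start. Ankrd37 had 4 matches, P4ha2 4, P4ha1 3, Ddit4 2 and Car9 1, the last lying 18 bases before the start. Kdm3a had 1 match at the first of its 3 annotated starts and 0 at the other two. Bnip3l, Ndrg1 and Angptl4 were not in the table used. Matches to either motif occurred in 43.8% of the 32851 mouse promoter windows of the same length, and 20.6% held at least 2, so a match is a description of letters and not of binding. P4ha1 and P4ha2, which held 3 and 4 matches, were called by edgeR in no comparison.

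Per length, as mean TPM (a length-scaled transcript share) over the 40 retinas, Bnip3 was the most abundant at 434, followed by Bnip3l at 167, Ndrg1 at 122 and Ankrd37 at 116. P4ha1 averaged 26.4 TPM, Ddit4 20.7, Kdm3a 17.2 and P4ha2 8.64. The least abundant were Angptl4 at 1.56 TPM and Car9 at 0.874 TPM. The levels of Angptl4 here and below are those of 1 of its rows in the table. A second row holds identical values in 40 of 40 libraries, so the level over both rows is 2 times as high, and 2 further rows of the symbol are at 0 in all libraries. Among tested genes the percentile rank of Bnip3 was 98.6 and that of Car9 was 34.1. Levels within a gene are given below as CPM, the read share of each library after scaling with TMM factors, and changes are log2 or fold values fitted by edgeR.

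**Figure D1:**
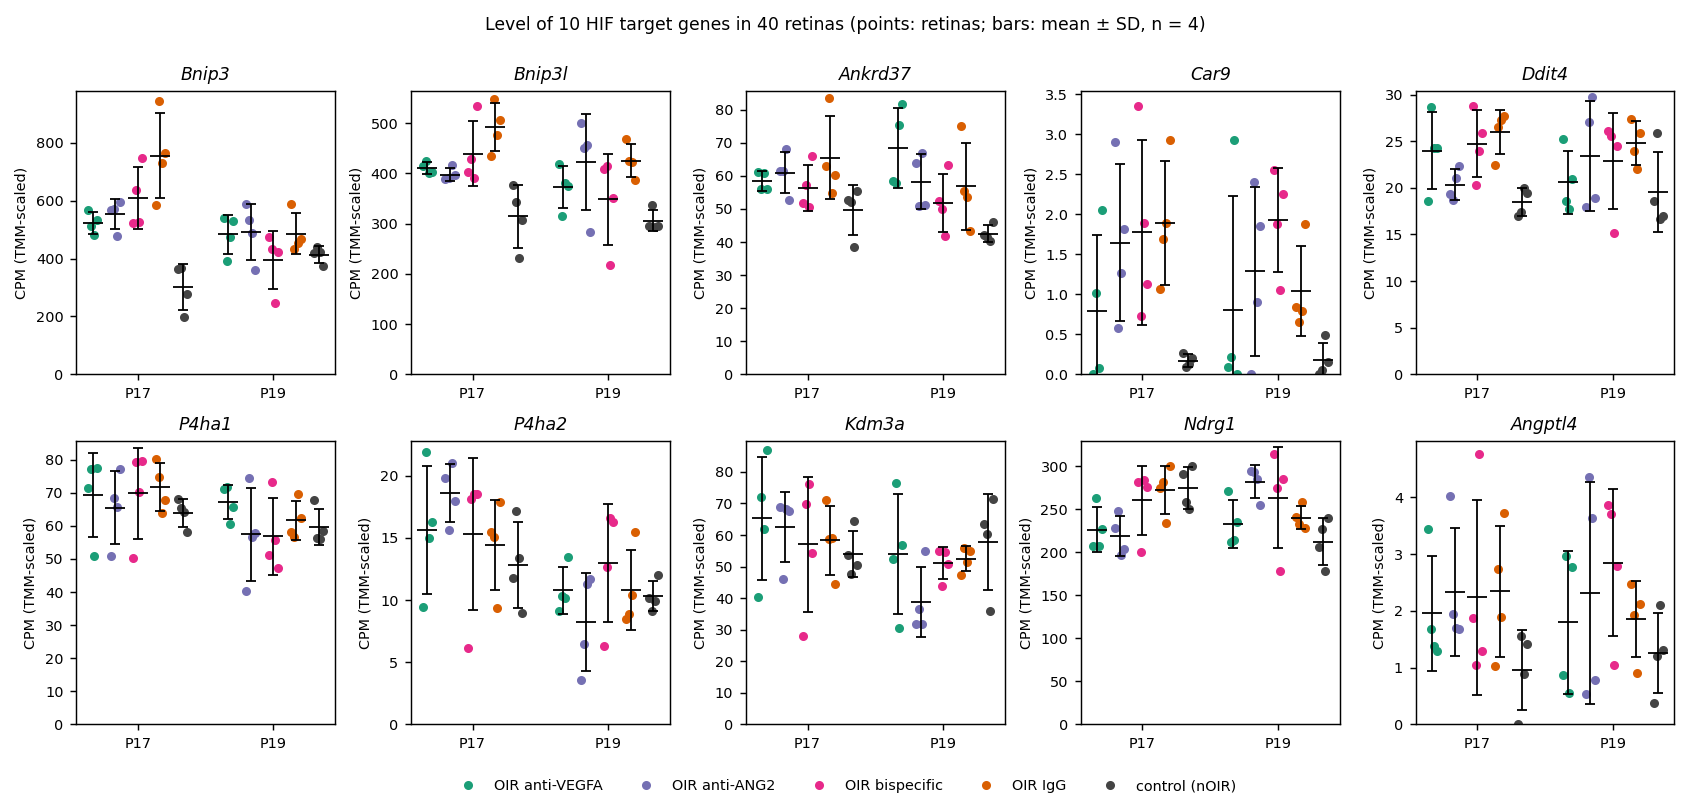
Level of each of the 10 genes in CPM on a linear axis from 0, for the groups OIR_Vab, OIR_A2ab, OIR_VA2ab, OIR_IgG and nOIR at P17 and then at P19. Points are single retinas and bars give the mean ± SD (n = 4). At P17 all 16 OIR retinas lie above the 4 nOIR retinas for Bnip3 and for Bnip3l, which for Bnip3l does not hold in TPM.

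Total counts ran from 9155091 to 25835055 per library. A set of 6 libraries stood apart, 3 by a TMM factor outside 0.8 to 1.2 (nOIR replicate 3 at P17, OIR_A2ab replicate 1 and OIR_VA2ab replicate 3 at P19) and 3 by lens crystallin and other lens transcripts (replicate 4 of OIR_IgG and of OIR_Vab and replicate 2 of OIR_A2ab at P17). The antibody groups at P19 held 12 libraries that correlated less well within their groups (mean r 0.862 to 0.885) than the other 28 (0.886 to 0.914), and had a mitochondrial share of 0.573 to 1.86% against 0.287 to 0.753%. Sexes were unbalanced between groups, as judged from Y-linked and Xist counts. At P19, log2 Y-linked CPM was 7.55 to 7.78 in the 4 OIR_IgG retinas and −1, its floor, in the 4 OIR_VA2ab retinas. At P17 it was −1 in the 4 OIR_A2ab retinas and 7.62 to 8.12 in the 4 OIR_Vab retinas. Some libraries carried both signals, such as nOIR replicate 2 at P17, at 3.68 with 514 CPM of Xist. Rod markers dominated, as in any whole retina, and summed to 39700 to 47500 CPM in OIR_IgG and 30100 to 38000 CPM in nOIR at P17. In such tissue, fewer cells of a type and less RNA per cell cannot be told apart.

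The first comparison asked how OIR with control IgG differed from control retinas. At P17, Bnip3 and Bnip3l, which encode mitophagy receptors of the outer mitochondrial membrane, rose in OIR, and the remaining 8 genes were not called. At P19, none of the 10 passed the threshold, an adjusted p under 0.05 over all 23495 genes. At P17 the 2 of 10 called by edgeR compare with 2.36% of all tested genes (2.11% called higher), and 5 of the 10 had an unadjusted p under 0.05, as did 15.7% of all genes. At P19 the 0 of 10 compare with 0.919% of all genes (0.821% called higher), and 3 of the 10 had an unadjusted p under 0.05, as did 12.6% of all genes. DESeq2 likewise called 2 of the 10 at P17 and 0 at P19, where it called 1062 and 516 of the 23495 genes. The median log2 change of the 10 was 0.45 at P17 and 0.29 at P19, against −0.05 for all tested genes at each age.

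Bnip3 lies on GRCm38 chromosome 7, 138890836 to 138909519, minus strand. In the 4 OIR_IgG retinas at P17 it stood at 584, 943, 730 and 765 CPM, against 365, 366, 197 and 279 CPM in the 4 nOIR retinas. The groups did not overlap, and the lowest OIR_IgG retina was well above the highest control. The means were 756 ± 148 CPM in OIR_IgG and 302 ± 81 CPM in nOIR (SD, n = 4 each), and the fitted change was 2.5-fold (95% interval 1.94 to 3.23, log2 1.32, SE 0.18, edgeR adjusted p = 9e-06). Bnip3 kept its call in each of 11 other settings, where log2 ran from 1 to 1.35, and without any 1 of the 8 retinas, where it ran from 1.15 to 1.43. At P19 the values were 589, 433, 454 and 468 CPM in OIR_IgG, against 418, 441, 422 and 373 CPM in nOIR. Here the groups overlapped, with 1 OIR_IgG retina standing high, and the difference was 1.18-fold (95% interval 0.917 to 1.51, adjusted p = 0.67).

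Bnip3l (chromosome 14, 66985239 to 67008877, minus strand), the close relative of Bnip3 that also clears mitochondria from maturing red cells, had a smaller fold. It stood at 435, 548, 477 and 506 CPM in OIR_IgG at P17, against 377, 342, 231 and 307 CPM in nOIR. Again every OIR_IgG retina exceeded every control retina, but the gap between the nearest pair was small. The fold was 1.56 (95% interval 1.25 to 1.95, log2 0.65, SE 0.16, edgeR adjusted p = 0.017). This call was lost with covariates for pigment epithelium and lens RNA (adjusted p = 0.28), without the 6 libraries that stood apart (adjusted p = 0.065), on TPM (adjusted p = 0.13 with a pseudocount of 1), and without nOIR replicate 3, nOIR replicate 4 or OIR_IgG replicate 2 (adjusted p up to 0.16). At P19 it stood at 468, 424, 422 and 387 CPM in OIR_IgG, against 296, 337, 294 and 295 CPM in nOIR. The groups did not overlap at P19 either, and the difference of 1.39-fold (95% interval 1.11 to 1.74) was not called (adjusted p = 0.14), although it was called without the 6 libraries (adjusted p = 0.031).

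Markers of several other cells and tissues were summed for these comparisons, and some lists moved while others did not. In these comparisons 2.11% of all tested genes were called higher at P17 and 0.821% at P19. At P17, oligodendrocyte markers summed to 93.9 to 142 CPM in OIR_IgG and 57.7 to 85.5 CPM in nOIR, with 0 called and a median log2 change of 0.25. Müller glia markers overlapped at P17, at 2520 to 3060 CPM in OIR_IgG and 1730 to 2870 CPM in nOIR, with 0 called and a median log2 change of 0.09. Lens markers at P19 summed to 112 to 219 CPM in OIR_IgG and 63 to 128 CPM in nOIR, with 0 called and a median log2 change of 0.05. Summed over 11 pigment epithelium markers, the retinas held 631 to 1250 CPM in OIR_IgG and 192 to 410 CPM in nOIR at P17, and 2 of the 11 were called higher. Summed over 10 lens markers, they held 103 to 2890 CPM in OIR_IgG and 54.5 to 108 CPM in nOIR, with 1 of 10 called and Lim2 at 0 in nOIR. Red cell markers summed to 163 to 1500 CPM in OIR_IgG and 92.4 to 248 CPM in nOIR, with 4 of 5 called. The sums over 7 microglia and macrophage markers were 232 to 375 CPM in OIR_IgG and 66.5 to 110 CPM in nOIR, with 6 called. Astrocyte markers, 3 genes of which 2 were tested, summed to 151 to 367 CPM in OIR_IgG and 38.5 to 83 CPM in nOIR, with 1 called, and 6 endothelial markers to 114 to 176 CPM in OIR_IgG and 95.9 to 137 CPM in nOIR, with 0 called. At P19 the microglia and macrophage markers again stood apart, at 226 to 298 CPM in OIR_IgG and 69.5 to 104 CPM in nOIR, with 6 of 7 called higher. Endothelial markers summed to 101 to 153 CPM in OIR_IgG and 66 to 109 CPM in nOIR at P19, with 2 of 6 called higher, and astrocyte markers to 128 to 179 CPM in OIR_IgG and 60.9 to 132 CPM in nOIR, with 0 called. Also at P19, pigment epithelium markers summed to 633 to 886 CPM in OIR_IgG and 336 to 996 CPM in nOIR, and red cell markers to 267 to 693 CPM in OIR_IgG and 283 to 731 CPM in nOIR, with 0 called in either list. With pigment epithelium and lens covariates, Bnip3 at P17 had a log2 change of 1.16 and kept its call, while Bnip3l lost its call (edgeR adjusted p = 0.28). The part that RNA of any of these cells and tissues had in the changes of Bnip3 and Bnip3l was not tested.

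Reads of near-identical copies limit the levels of both genes. For Bnip3 these are Gm16439 (98.9% identity over 564 bases), Gm6532 (98.6% over 559), AC160336.1 (98.3% over 858) and Gm9419 (95.2% over 567). Bnip3l has a copy, Bnip3l-ps, at 99.2% identity over 663 bases. Bnip3 also shares 504 of 2265 exon bases with the antisense gene Gm45507. No source used here states how reads were split among these loci.

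Ankrd37 (chromosome 8, 45996902 to 46005707, minus strand) stood at 63.1, 83.5, 54.9 and 60.3 CPM in OIR_IgG at P17, against 52.6, 52.1, 38.5 and 55.3 CPM in nOIR. The lowest OIR_IgG retina was just below the highest control, and the 1.32-fold difference was not called (95% interval 1.06 to 1.65, adjusted p = 0.19). At P19 it stood at 75, 55.4, 53.6 and 43.2 CPM in OIR_IgG, against 42, 41.6, 40.3 and 46.2 CPM in nOIR, again with 1 overlap (1.33-fold, adjusted p = 0.22). Its exons share 349 of 1539 bases with Lrp2bp and 57 with Ufsp2, both on the opposite strand. Lrp2bp averaged 6.54 CPM and Ufsp2 112 CPM over the 40 retinas, and since no source states strand-specific counting, reads in the shared bases cannot be assigned with certainty.

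Car9 (chromosome 4, 43506966 to 43513729, plus strand), the cell-surface carbonic anhydrase that is a standard tissue marker of hypoxia, was close to the limit of detection in control retinas. It had 25, 42, 42 and 48 counts in OIR_IgG at P17, against 4, 2, 2 and 3 counts in nOIR. In CPM these are 1.07, 1.69, 1.89 and 2.93 in OIR_IgG, against 0.269, 0.0888, 0.128 and 0.202 in nOIR. The groups were widely separated, but the counts were few. The summed counts, 157 in OIR_IgG and 11 in nOIR, gave a ratio of 11.2 after scaling, with a counting interval of 6.08 to 22.8 that leaves out the spread between retinas. With that spread the fitted change was 10.8-fold with a wide interval (95% interval 2.04 to 56.8), and it was not called (unadjusted p = 0.0062, adjusted p = 0.12). A fit to the compared groups alone did call it (adjusted p = 0.039). At P19 it stood at 0.846, 0.654, 0.788 and 1.88 CPM in OIR_IgG, against 0, 0.0544, 0.496 and 0.153 CPM in nOIR (5.77-fold, adjusted p = 0.34). The retina listed at 0 could have held up to 0.191 CPM, the level of 3 counts, and every OIR_IgG retina exceeded every control. Car9 shares 214 of its 2304 exon bases with the antisense gene Gm12454.

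Ddit4 (chromosome 10, 59949669 to 59951834, minus strand), which encodes REDD1, a stress-induced inhibitor of mTOR complex activity, stood at 22.5, 26.5, 27.3 and 27.7 CPM in OIR_IgG at P17, against 17, 17.4, 20 and 19.5 CPM in nOIR. The groups did not overlap in CPM, though they did in TPM, and the difference of 1.41-fold (95% interval 1.08 to 1.84) was not called (unadjusted p = 0.013, adjusted p = 0.17). At P19, where 1 control retina stood at 25.9 CPM, the 4 OIR_IgG retinas ran from 22 to 27.4 CPM and the nOIR retinas from 16.7 to 25.9 CPM, and the groups overlapped (1.27-fold, adjusted p = 0.46).

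The hydroxylases and Ndrg1 gave no call between OIR_IgG and nOIR at either age. P4ha1 and P4ha2 encode the catalytic subunits of collagen prolyl 4-hydroxylase, which stabilises the collagen triple helix. P4ha1 averaged 71.7 ± 7.25 CPM in OIR_IgG and 64 ± 4.18 CPM in nOIR at P17 (1.12-fold, 95% interval 0.893 to 1.41), and P4ha2 14.5 ± 3.63 CPM in OIR_IgG and 12.8 ± 3.45 CPM in nOIR (1.13-fold, 0.717 to 1.77). Kdm3a, a demethylase of histone H3 lysine 9, averaged 58.3 ± 10.8 CPM in OIR_IgG and 54 ± 7.28 CPM in nOIR (1.08-fold, 0.769 to 1.52). Ndrg1, a stress-responsive protein linked to cell differentiation, was at 273 ± 28.1 CPM in OIR_IgG and 275 ± 24.7 CPM in nOIR (0.992-fold, 0.817 to 1.21). All 4 intervals end below the 2.5-fold of Bnip3. At P19 the folds of these 4 genes were 1.03, 1.05, 0.908 and 1.13, in the same order of P4ha1, P4ha2, Kdm3a and Ndrg1, with adjusted p from 0.68 to 0.96.

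Angptl4 (chromosome 17, 33773750 to 33781830, minus strand), a secreted inhibitor of lipoprotein lipase, was low. It stood at 1.03, 2.74, 1.89 and 3.72 CPM in OIR_IgG at P17, against 0, 1.55, 0.893 and 1.41 CPM in nOIR, where a level of 0 allows up to 0.202 CPM. The ranges overlapped in 1 retina and the difference was not called (log2 1.26, SE 0.75, adjusted p = 0.43). At P19 the OIR_IgG retinas ran from 0.901 to 2.47 CPM and the nOIR retinas from 0.382 to 2.11 CPM (adjusted p = 0.84). With the identical rows summed, the log2 change at P17 was 1.27 (adjusted p = 0.39).

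**Figure D2:**
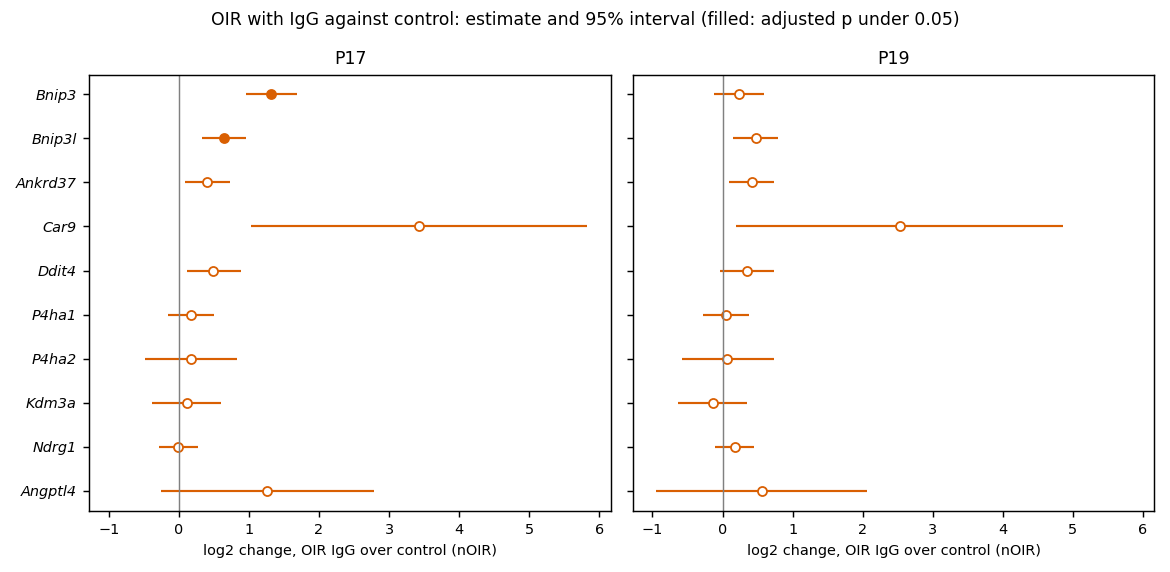
Log2 change of each gene in OIR_IgG over nOIR at P17 and at P19, as the edgeR estimate with its 95% interval, filled where the adjusted p was under 0.05. At P17 Bnip3 (1.32) and Bnip3l (0.65) are filled, Car9 has the largest estimate (3.43) and the widest interval, and no point is filled at P19.

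In CPM, the 10 genes thus fell into those whose 4 OIR_IgG retinas all lay above the 4 controls at P17 (Bnip3, Bnip3l, Car9 and Ddit4) and those that overlapped. Such a separation in CPM was seen in 6.82% of all tested genes at P17 and 6.64% at P19, when it held for Bnip3l and Car9. For Ddit4 it depended on the scale. In TPM, nOIR replicate 3 at P17 stood at 29.6, above the OIR_IgG retinas at 22.2 to 24.8. Of the 10 estimates, 9 were positive at each age, as were 46.4% of all estimates at P17 and 45.6% at P19. On the TPM scale with a pseudocount of 1, 6 were positive at P17, and P4ha1, P4ha2 and Kdm3a turned negative. That scale moved the median of all genes at P17 from −0.05 to −0.22, and relative to it Bnip3 stood at 1.22 and Bnip3l at 0.54. At P19, 5 were positive on that scale, Bnip3 stood at 0 and P4ha1, P4ha2, Kdm3a and Ndrg1 were negative, while the median of all genes moved from −0.05 to −0.15.

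When all 16 OIR retinas of an age are set against the 4 controls, whatever their injection, Bnip3 and Bnip3l separate at P17 in CPM. The 16 include the 4 OIR_IgG retinas, and the controls are the same as above. At P17 the lowest of the 16 OIR retinas had 477 CPM of Bnip3, against 366 CPM in the highest control, and 388 CPM of Bnip3l, against 377 CPM. In TPM, Bnip3l did not separate: OIR_VA2ab replicate 1 stood at 147 and OIR_Vab replicate 1 at 156, below the lowest control at 157. Car9 exceeded the highest control in 14 of 16 OIR retinas, Ddit4 in 13, Ankrd37 in 12, Angptl4 in 11 and P4ha1 in 10. Ndrg1 did so in 0 and lay below the lowest control in 9. Complete separation of this kind was found in 1.34% of tested genes at P17. At P19, where it was found in 0.830% of tested genes, none of the 10 showed it: Ankrd37 exceeded the highest control in 14 of 16 OIR retinas, Bnip3l in 13, Car9 in 12, and Bnip3 and Ndrg1 in 10 each.

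The next comparison asked whether an antibody changed these levels relative to IgG in OIR. By edgeR, 0 of 10 genes were called for any of the 3 antibodies at P17 or P19, and the background was also close to 0. Of all tested genes, 0% were called for each antibody at P17 and for OIR_Vab at P19, 0.0979% for OIR_A2ab at P19 and 0.0468% for OIR_VA2ab at P19. DESeq2 also called 0 of the 10 in each, against its own background over the 23495 genes. For OIR_Vab, OIR_A2ab and OIR_VA2ab it called 2, 19 and 16 genes at P17, and 38, 557 and 73 at P19. At an unadjusted p under 0.05 by edgeR, the genes numbered 1 of 10 for OIR_Vab at P17 (4.80% of all genes), 2 for OIR_A2ab (7.64%) and 0 for OIR_VA2ab (3.92%). At P19 they numbered 0 of 10 for OIR_Vab (11.1% of all genes), OIR_A2ab (12.5%) and OIR_VA2ab (8.24%). All 3 antibody comparisons at an age share the 4 OIR_IgG retinas, so they are not independent of each other. By Y-linked counts, OIR_IgG and OIR_VA2ab at P19 were of opposite sex throughout, so sex and antibody cannot be told apart there.

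Bnip3 had the smallest p of the 10 at P17. It stood at 569, 512, 480 and 533 CPM in OIR_Vab, against 584, 943, 730 and 765 CPM in OIR_IgG. Every OIR_Vab retina was below every OIR_IgG retina, a gap that was narrow at its edge (0.693-fold, 95% interval 0.54 to 0.889, unadjusted p = 0.0049, edgeR adjusted p = 0.99). With OIR_A2ab it stood at 569, 571, 477 and 594 CPM (0.731-fold against OIR_IgG, 0.57 to 0.939, adjusted p = 0.56). The highest of these exceeded the lowest OIR_IgG retina. With OIR_VA2ab it stood at 522, 637, 526 and 748 CPM (0.805-fold, 0.628 to 1.03, adjusted p = 1). At P19 the estimates were 0.995-fold for OIR_Vab, 1.01-fold for OIR_A2ab and 0.812-fold for OIR_VA2ab.

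Bnip3l averaged 0.835-fold in OIR_Vab (95% interval 0.669 to 1.04), 0.809-fold in OIR_A2ab (0.648 to 1.01) and 0.893-fold in OIR_VA2ab (0.716 to 1.11) relative to OIR_IgG at P17, with adjusted p from 0.66 to 1. Its values were 414, 425, 400 and 403 CPM in OIR_Vab and 388, 390, 416 and 396 CPM in OIR_A2ab, against 435, 548, 477 and 506 CPM in OIR_IgG, so in CPM both antibody groups lay below all OIR_IgG retinas. Such a separation in CPM held at P17 for 2 of the 10 in OIR_Vab (Bnip3 and Bnip3l), against 1.62% of all genes, and for 2 in OIR_A2ab (Bnip3l and Ddit4), against 4.24%. In TPM only that of Bnip3 in OIR_Vab remained, at up to 555 against 558 or more in OIR_IgG. Bnip3l then reached 205 in OIR_Vab and 195 in OIR_A2ab, against 180 in the lowest OIR_IgG retina. Ddit4 reached 23 TPM in OIR_A2ab, against 22.2 in the lowest OIR_IgG retina. Ndrg1 averaged 219 ± 23.3 CPM in OIR_A2ab and 273 ± 28.1 CPM in OIR_IgG at P17 (0.804-fold, unadjusted p = 0.029, adjusted p = 0.61). For Car9 the intervals were too wide to place an antibody effect: at P17 the fold was 0.423 for OIR_Vab (0.0955 to 1.87), 0.872 for OIR_A2ab (0.202 to 3.76) and 0.936 for OIR_VA2ab (0.218 to 4.02). The OIR_Vab retinas at P17 differed widely in Car9, with 0, 1.02, 0.0768 and 2.05 CPM. At P19 they held 0.0976, 0.212, 2.93 and 0 CPM, so that 1 retina carried most of the group's mean.

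**Figure D3:**
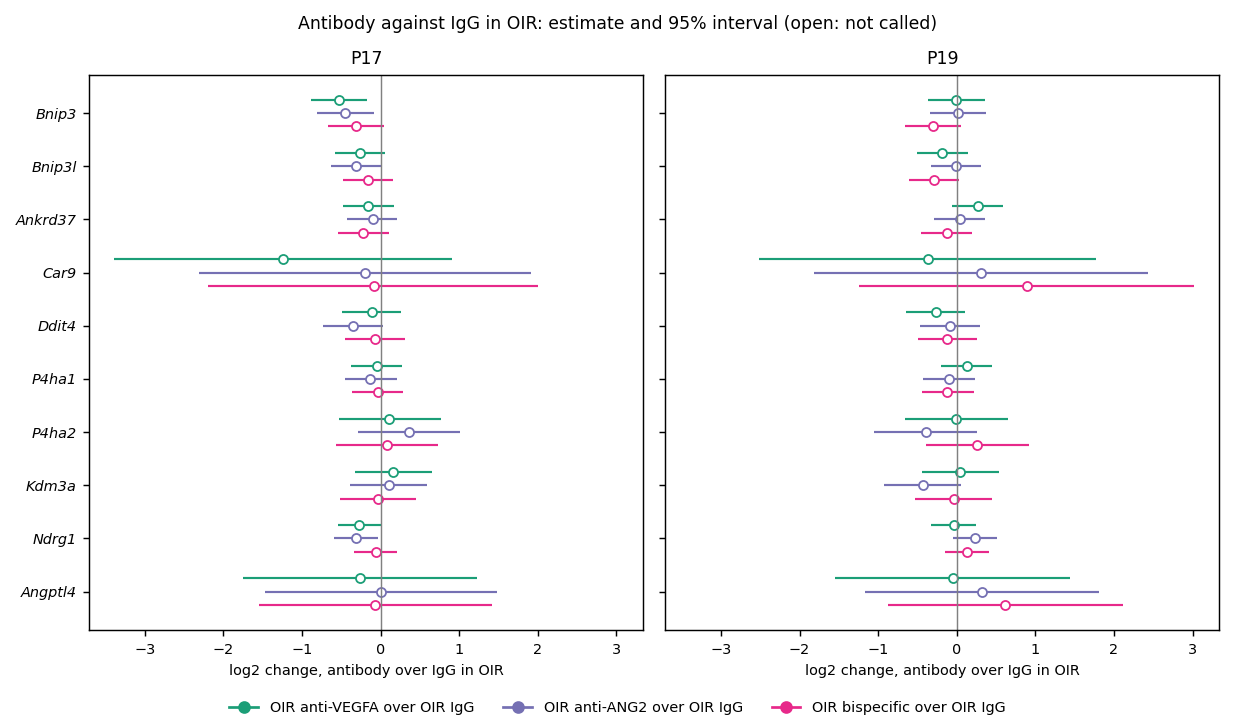
Log2 change of each gene in OIR_Vab, OIR_A2ab and OIR_VA2ab over OIR_IgG at P17 and P19, with 95% intervals from edgeR. All points are open because none was called, and the intervals of Bnip3 at P17 lie below 0 for OIR_Vab and OIR_A2ab.

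Set against control retinas, the antibody-treated OIR groups still showed higher Bnip3 at P17. Its fold over nOIR was 1.74 in OIR_Vab (adjusted p = 0.018), 1.83 in OIR_A2ab (adjusted p = 0.0063) and 2.02 in OIR_VA2ab (adjusted p = 0.00082), beside 2.5 in OIR_IgG. It was the 1 gene of the 10 called in each of these comparisons, where 0.643%, 0.953% and 0.834% of all genes were called. The call in OIR_VA2ab held in every setting tried and without any 1 retina. In OIR_Vab it was lost with pigment epithelium and lens covariates, without the 6 libraries, in a fit to the compared groups alone, and without nOIR replicate 3, nOIR replicate 4 or OIR_Vab replicate 1 (adjusted p up to 0.15). In OIR_A2ab it was lost with those covariates (adjusted p = 0.29) and without nOIR replicate 3 (adjusted p = 0.062). These comparisons share the 4 nOIR retinas, of which replicate 3 was the lowest for Bnip3, at 197 CPM, and had the highest TMM factor of all, 1.28.

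At P19 other genes of the 10 were called against controls. Ankrd37 stood at 58.3, 57.9, 75.4 and 81.8 CPM in OIR_Vab, against 42, 41.6, 40.3 and 46.2 CPM in nOIR. The groups did not overlap, and 6.29% of all tested genes were likewise above all controls. Ankrd37 rose 1.61-fold (95% interval 1.28 to 2.01, edgeR adjusted p = 0.01), the 1 call among the 10 in a comparison where 4.73% of all genes were called. It kept its call in each of 11 settings but not without OIR_Vab replicate 3 or replicate 4 (adjusted p up to 0.069). In OIR_A2ab the fold of Ankrd37 was 1.37 (adjusted p = 0.062). Bnip3l (1.39-fold, adjusted p = 0.048) and Ndrg1 (1.33-fold, adjusted p = 0.049) were called higher in OIR_A2ab, where 10.7% of all genes were called. Bnip3l stood at 501, 451, 456 and 284 CPM in OIR_A2ab, against 296, 337, 294 and 295 CPM in nOIR, so that 1 OIR_A2ab retina lay below all controls. Ndrg1 stood at 295, 294, 286 and 255 CPM in OIR_A2ab, against 206, 227, 178 and 240 CPM in nOIR, with no overlap, a separation seen in 8.48% of all tested genes.

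Both of these calls were close to the threshold. On TPM they reversed, to −0.14 for Bnip3l and −0.16 for Ndrg1, on a scale that moved the median of all genes in this comparison from −0.06 to −0.31 (pseudocount 1) and on which 9.92% of all called genes were higher, against 65.9% by edgeR. Relative to that median both stayed positive, at 0.18 for Bnip3l and 0.15 for Ndrg1. Bnip3, at 1.19-fold over nOIR in this comparison by edgeR (adjusted p = 0.46), was called lower on TPM (log2 −0.36, or −0.04 relative to that median). On TPM with a pseudocount of 1, 6363 of the 23495 genes were called here. Leaving out single retinas ended the Bnip3l call in 7 of 8 cases and the Ndrg1 call in 6 of 8. Ndrg1 is also known from oligodendrocytes, whose markers summed to 60 to 84.9 CPM in OIR_A2ab and 61.7 to 686 CPM in nOIR at P19, with 2 of 6 called lower and 0 higher. These markers were uneven among the controls, and the part of oligodendrocyte RNA in the Ndrg1 levels was not tested. In OIR_VA2ab at P19, edgeR called 0 of the 10 and 0.443% of all genes. DESeq2 called 1 of the 10 (Car9) and 440 of the 23495 genes. By edgeR, 2 of the 10 had an unadjusted p under 0.05, as did 10.8% of all genes. They were Car9 at 2.55, 1.88, 1.05 and 2.25 CPM in OIR_VA2ab (10.7-fold over nOIR, 95% interval 2.03 to 56.1, adjusted p = 0.21), and Ndrg1 (1.24-fold, adjusted p = 0.39).

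Between the ages, Bnip3 had estimates of opposite sign in OIR and control retinas. In OIR_IgG it averaged 486 ± 70.1 CPM at P19 and 756 ± 148 CPM at P17 (0.643-fold, unadjusted p = 0.00092, adjusted p = 0.87). In nOIR it averaged 413 ± 28.8 CPM at P19 and 302 ± 81 CPM at P17 (1.37-fold, unadjusted p = 0.015, adjusted p = 0.58), with all 4 P19 retinas above all 4 at P17, as in 3.23% of all tested genes. The OIR effect at P19 minus that at P17 was −1.09 on the log2 scale (SE 0.25, unadjusted p = 9.3e-05) and was not called by edgeR (adjusted p = 0.27). DESeq2 called it (adjusted p = 0.0078), as did limma on TPM (adjusted p = 0.013). By edgeR 0 of the 10 were called in each age comparison, where 0.0979% of all genes were called in nOIR, 0.00851% in OIR_IgG and 0.00426% for the difference of the effects. At an unadjusted p under 0.05 there were 2 of the 10 in nOIR (Bnip3 and Ndrg1, with 6.01% of all genes), 1 in OIR_IgG (Bnip3, with 4.69%) and 1 for the difference (Bnip3, with 5.68%). Ndrg1 averaged 213 ± 27 CPM at P19 and 275 ± 24.7 CPM at P17 in nOIR (0.773-fold, adjusted p = 0.54). Every P19 retina lay below every P17 retina, as in 2.15% of all tested genes.

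Bnip3l did not share the age pattern of Bnip3. Its OIR effect at P19 minus that at P17 was −0.17 (SE 0.22, adjusted p = 1). The ratio of Bnip3 to Bnip3l CPM was 1.53 ± 0.154 in OIR_IgG and 0.95 ± 0.0925 in nOIR at P17, and 1.14 ± 0.111 in OIR_IgG and 1.35 ± 0.0805 in nOIR at P19. The ranges of this ratio did not overlap between OIR_IgG and nOIR at either age, lying above the control range at P17 (1.34 to 1.72 in OIR_IgG, 0.854 to 1.07 in nOIR) and below it at P19 (1.02 to 1.26 in OIR_IgG, 1.27 to 1.43 in nOIR). Within groups the pair varied together: the same retina had the highest level of both genes in 6 of 10 groups and the lowest in 6 of 10. Over the 10 group means of log2 CPM their r was 0.9, a description over points that share retinas and scaling.

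Other genes with a group pattern like a member's were ranked by Pearson r over the 10 group means of log2 CPM, among 12508 genes averaging at least 5 CPM. For Bnip3 the nearest were Tgm2 (r = 0.968) and Scrn3 (0.957), for Bnip3l Mnat1 (0.97) and Laptm4a (0.967), and for Ankrd37 Anxa1 (0.988) and Prpf38a (0.985). For Car9 they were Hadh (0.945) and Abhd4 (0.926), and for Ddit4 Siah1a (0.943) and Fcgrt (0.936). P4ha1 came nearest to Trip4 (0.947) and Poglut1 (0.945), P4ha2 to Aldh6a1 (0.931) and Flna (0.931), and Kdm3a to Slc4a10 (0.98) and Ctnnd1 (0.962). The nearest to Ndrg1 were Shisa4 (0.922) and Htra1 (0.919), and to Angptl4 C4b (0.934) and Stra6 (0.929). With 10 points and so many candidates, values of this size are a ranking only.

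The group with the highest mean CPM differed from gene to gene, but for each of the 10 it exceeded the next group by less than the larger SD of the pair. The gap came to 0.999 of that SD for Bnip3 and 0.81 for Bnip3l, both highest in OIR_IgG at P17, and to between 0.0506 (Car9) and 0.581 (P4ha2) for the other genes. For none of the 10 genes was the group in the lead separated from the next. On mean TPM the order also changed: Ndrg1, for example, was lowest in OIR_A2ab at P19, at 102 TPM, the group in which its mean CPM was highest. By mean CPM, the highest group exceeded the lowest 11.3-fold for Car9, 2.96-fold for Angptl4, 2.5-fold for Bnip3, 2.26-fold for P4ha2, 1.68-fold for Kdm3a, 1.61-fold for Bnip3l and for Ankrd37, 1.41-fold for Ddit4, 1.33-fold for Ndrg1 and 1.26-fold for P4ha1.

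The rest of the HIF response was read from lists of other targets, which were chosen with earlier results of these data known. Of all tested genes, 2.11% were called higher in OIR_IgG than in nOIR at P17 and 0.821% at P19. The median log2 change of all genes was −0.05 at each age. At P17, 8 of 20 genes of glycolysis and lactate were called higher in OIR_IgG than in nOIR and 0 lower (median log2 change 0.52), among them Slc16a3, a lactate exporter (2.46-fold), and Pgk1, phosphoglycerate kinase (1.68-fold). At P19 none of the 20 was called (median −0.01). Of 8 tested vessel genes, 3 were called higher at P17 (median 1.33) and 3 at P19 (0.76). They were Adm, adrenomedullin (20.7-fold at P17 and 15.4-fold at P19), Apln, apelin (12.2-fold and 6.67-fold), and Vegfa (2.35-fold and 1.7-fold). Of 28 targets with other roles, 8 were called higher at P17 (median 0.5) and 4 at P19 (0.19), led at both ages by Ndufa4l2, a mitochondrial protein (10.9-fold and 22.6-fold), and including Hmox1, heme oxygenase (9.21-fold and 5-fold).

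Among 14 close relatives of the 10 genes, which are not all HIF targets, 1 was called at P17 and 0 at P19 (medians 0.07 and 0.08). The one was Fundc1, which encodes another mitophagy receptor (1.53-fold, adjusted p = 0.03). Of all tested genes, 2.36% were called at P17 and 0.919% at P19. The OIR effect at P19 minus that at P17 had a median of −0.55 for glycolysis, −0.75 for vessel genes, −0.19 for the targets with other roles, −0.02 for the relatives and −0.16 for the 10 genes, with 0 called in each list. Slc16a3, which like Bnip3 was called at P17, stood at 1.12-fold at P19 and was not called (adjusted p = 0.8).

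**Figure D4:**
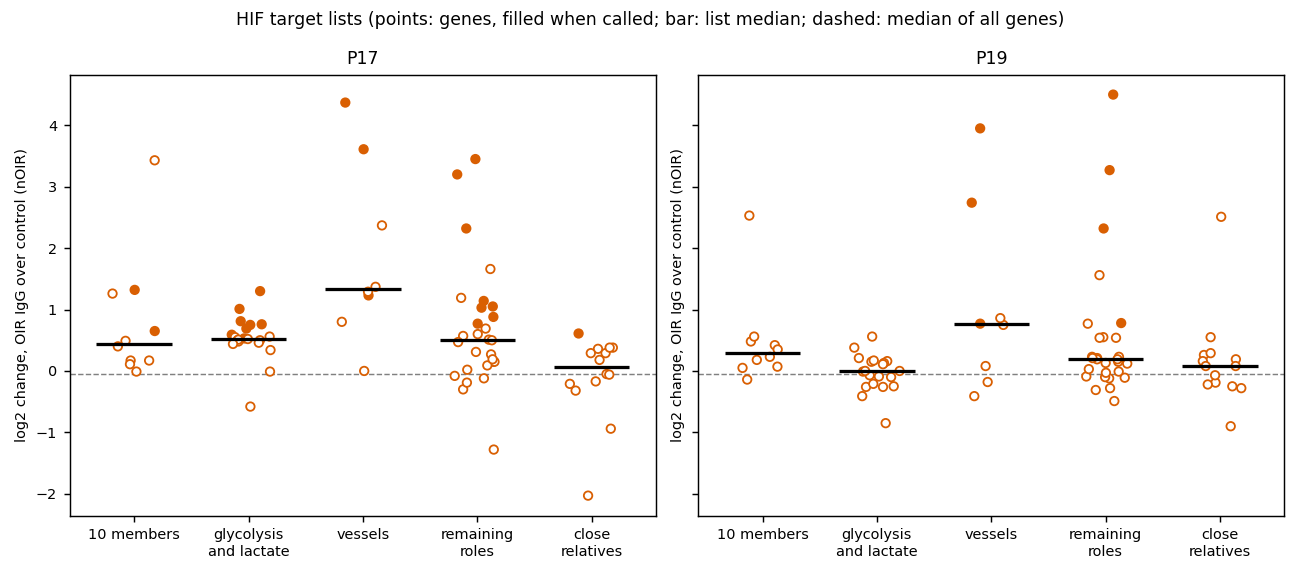
Log2 change in OIR_IgG over nOIR at P17 and P19 for the 10 genes, other HIF targets by role, and close relatives of the 10. Points are genes, filled where called, bars are list medians and the dashed line is the median of all tested genes (−0.05). The median of the 10 genes is 0.45 at P17 and 0.29 at P19, and that of glycolysis 0.52 and −0.01.

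How far the calls of Bnip3 and Bnip3l at P17 depend on the analysis is drawn as their log2 change in each setting. The estimates kept their sign in each of the 11 alternatives, and the lowest came from TPM, at 1 for Bnip3 and 0.32 for Bnip3l.

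**Figure D5:**
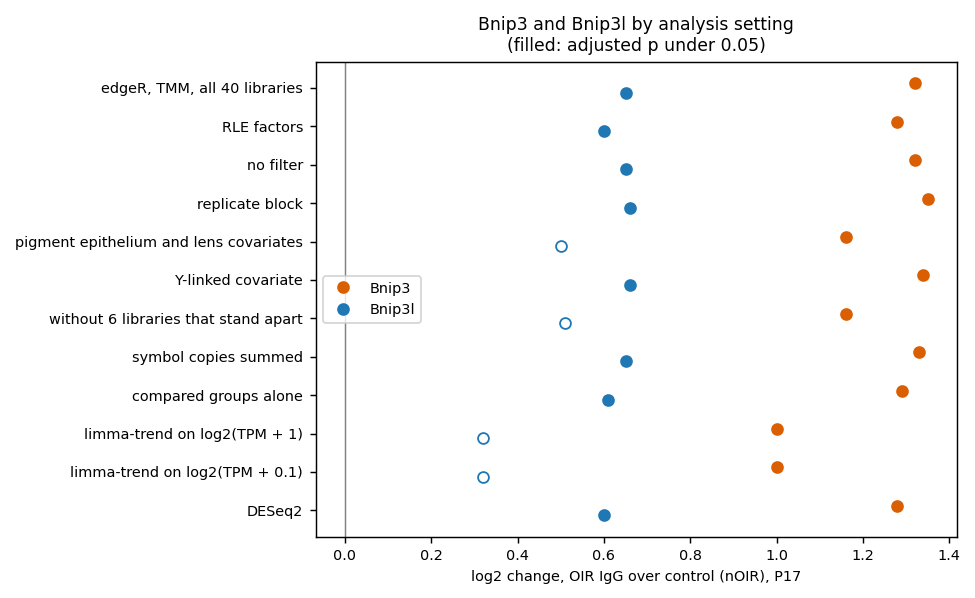
Log2 change of Bnip3 and Bnip3l in OIR_IgG over nOIR at P17 under the analysis as reported and 11 alternatives, filled where the adjusted p was under 0.05. Bnip3 is filled in every row, and Bnip3l is open with pigment epithelium and lens covariates, without 6 libraries and in both TPM fits.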

How the data were processed

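The authors deposited RSEM expected counts and TPM values for 42037 gene symbols in 40 libraries. The submitters' processing notes name STAR 2.7.10a, RSEM 1.3.3 and build GRCm38.p4. The gene annotation and strand setting are not given in the sources used. Each library, per the labels' protocols, came from 1 whole retina by SMART-Seq mRNA and Nextera XT, with 4 independent samples per group. Which retinas shared a mouse or litter is not stated, so p-values measure the spread between retinas.

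Expected counts, of which 15.7% of nonzero values were not whole, were rounded and fitted with edgeR 4.0.16 (R 4.3.3) on all 40 libraries and 10 groups: TMM factors, the filter by group, robust quasi-likelihood tests, and Benjamini-Hochberg adjustment over 23495 genes in each of 17 comparisons. A gene was called at an adjusted p under 0.05. The SE is the log2 change divided by the square root of F. Coordinates are from GENCODE for GRCm38. The interval of the Car9 ratio of summed counts and floors of 3 counts cover counting error only, while edgeR's 95% intervals include the spread between retinas. The edgeR step was checked on simulated counts for OIR_IgG against nOIR at P17, with 200 genes of at least 5 CPM changed. It found 17.9% of 1.5-fold changes, 50.7% of 2-fold changes and 93.9% of 4-fold changes. Most changes of 1.5-fold were thus missed, and a gene that was not called is not shown to be unchanged.

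Alternatives were RLE factors, no filter, a replicate block, covariates for pigment epithelium and lens or for Y-linked counts, the compared groups alone, limma-trend (limma 3.58.1) on log2(TPM + 1) and log2(TPM + 0.1), DESeq2 1.42.0, and leaving out each library. Added after seeing the data were fits without the 6 libraries that stood apart and with copies of a symbol summed. The 10 genes and all lists were chosen with earlier results of these data known. Named by rule were the 10 genes, up to 3 called genes with the smallest p per list, and the 2 genes with the most similar group pattern.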

Additional observations from a re-analysis of the deposited data

Results flagged for a closer look

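In 8 of 100 sets of 4 retinas (10 genes in 10 groups), 1 retina stood apart from the other 3 by a gap that was large against the range of its group, where chance gives about 5%. Bnip3l in nOIR at P19 was 337 CPM in replicate 2, against 294 to 296 CPM in the others. Car9 was 1.88 CPM in OIR_IgG replicate 4 at P19 (others 0.654 to 0.846 CPM) and 2.93 CPM in OIR_Vab replicate 3 at P19 (others 0 to 0.212 CPM). Ddit4 was low, at 15.2 CPM, in OIR_VA2ab replicate 3 at P19 (others 24.5 to 26.1 CPM), a library that also stood apart by its TMM factor of 1.249. P4ha2 was 6.12 CPM in OIR_VA2ab replicate 1 at P17 (others 18.1 to 18.5 CPM). Kdm3a was 46 CPM in OIR_A2ab replicate 2 at P17 (others 67.5 to 68.9 CPM), a library that stood apart by its lens transcripts. Ndrg1 was 201 CPM in OIR_VA2ab replicate 2 at P17 (others 276 to 284 CPM). Angptl4 was 4.02 CPM in OIR_A2ab replicate 1 at P17 (others 1.69 to 1.95 CPM). Their causes were not tested.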

How the results depend on the processing

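The count of the 10 genes called in OIR_IgG against nOIR at P17 was 2, and 1 with pigment epithelium and lens covariates, without the 6 libraries that stood apart and in both TPM fits (Bnip3 in each) and 3 in the compared groups alone (Bnip3, Bnip3l and Car9). At P19 it was 0, and 1 without the 6 libraries and in the compared groups alone (Bnip3l). Against nOIR, OIR_Vab at P17 had 1, and 0 with those covariates, without the 6 libraries and in the compared groups alone. OIR_A2ab at P17 had 1, then 0 with the covariates and 2 in both TPM fits (Bnip3 higher, Ndrg1 lower), which called 409 and 382 of the 23495 genes. At P19 it had 2, then 0 without a filter or without the 6 libraries, 1 with the Y-linked covariate (Bnip3l) or in the compared groups alone (Ndrg1), and 4 with DESeq2 (Bnip3l, Ankrd37, Car9 and Ndrg1). The DESeq2 fit called 3409 of the 23495 genes there. On both TPM fits Bnip3l reversed to −0.14 and Ndrg1 to −0.16 there, where the median of all genes was −0.31 and −0.59 (pseudocounts 1 and 0.1). Relative to it they stood at 0.18 and 0.15 with a pseudocount of 1, and at 0.45 and 0.43 with 0.1. In this comparison the 2 and 3 genes called on TPM were lower: Bnip3 and Kdm3a in both, and P4ha1 with 0.1. These fits called 6363 and 6634 of the 23495 genes, of which 9.92% and 10.1% were higher, so calls of lower were common among all genes. OIR_VA2ab at P19 had 0, and 1 without the 6 libraries (Ndrg1) or with DESeq2 (Car9), where 743 and 440 of all genes were called. OIR_A2ab against OIR_IgG at P19 had 0, and 1 on log2(TPM + 0.1) (Bnip3l, lower), where 847 of the 23495 genes were called (5.08% higher). In the age comparisons, Bnip3 alone was called, giving 1 for OIR_IgG on log2(TPM + 1) and 1 for the OIR effect by age in both TPM fits and with DESeq2. Leaving out single libraries gave 1 to 2 calls in OIR_IgG against nOIR at P17, 0 to 1 in OIR_Vab against nOIR at each age, 0 to 1 in OIR_A2ab at P17 and 0 to 4 at P19. The cause of these shifts was not tested.

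Over all genes, OIR_IgG against nOIR at P17 had 555 calls (89.4% higher), against 144 with pigment epithelium and lens covariates, 333 without the 6 libraries, 1062 with DESeq2 (73.6% higher), 602 in the compared groups alone (67.1%), and 362 (44.5%) and 269 (56.1%) on TPM with pseudocounts of 1 and 0.1. At P19 it had 216 (89.4% higher), against 100 with the Y-linked covariate, 145 without a filter, 590 without the 6 libraries, 516 with DESeq2 (75.2%), 761 in the compared groups alone (71.5%), and 355 and 383 on TPM. The replicate block changed no count of called members, which stayed at 2 in OIR_IgG against nOIR at P17. Same-numbered retinas deviated together (r over 0.1) in 7 of 64 pairs (range −0.12 to 0.19) and never in all pairs of a comparison, so the numbers do not pair the samples. Counts of 0 to 52 per library limit Car9.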
